A study of Mus musculus with 8 samples.

Results

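The Slc25 genes encode the mitochondrial carrier family, and their transcripts were followed here in mouse spermatocytes with and without the mitochondrial fusion gene Mfn2. The members were all protein-coding genes of the table whose symbol begins with Slc25a followed by a number, which gave 47 members among 22046 protein-coding genes and 54532 listed genes. Of the 47, 45 exceeded an FPKM (fragments per kilobase of gene and per number of mapped fragments) of 1 in at least 1 library and entered the tests. Slc25a15, the ornithine and citrulline carrier, and Slc25a53, a little characterised X-linked member, stayed at or below 1 in all 8 libraries.

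Carriers of this family sit mostly in the inner mitochondrial membrane and move metabolites, nucleotides, phosphate, cofactors and metal ions between the matrix and the rest of the cell. The ADP/ATP carriers bring ADP in and send ATP out, and so link the respiratory chain to the energy use of the cell. Slc25a4 is the form of muscle and heart, Slc25a5 the X-linked form of dividing cells, and Slc25a31 an autosomal form known from the germ line, where the X chromosome is silenced during the pachytene stage of meiosis.

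Each of the 8 libraries was the only one of its group. C57BL/6J mice at postnatal day (PD) 24 and PD 52 gave spermatocytes of the pachytene stage (P) and of the earlier leptotene or zygotene stages (L/Z). The MFN2 WT mice are labelled Mfn2 loxp/loxp without Cre, although the methods of the study also allow controls with a single floxed allele, and the MFN2 cKO mice were Mfn2 loxp/loxp with Stra8-Cre, a Cre driven by the promoter of a gene that germ cells switch on before meiosis, so both genotypes carried floxed exon 6. Cells were separated by sedimentation through albumin and judged by size and shape under the microscope, and the number of animals behind a library was not given in the sources used here. With 1 library per group, a single comparison of MFN2 cKO with MFN2 WT had no replicate check. The tests therefore took the 4 matched pairs (P or L/Z, PD 24 or PD 52) as repeats, so that their errors also hold true differences between those pairs.

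The libraries held 14340665 to 20379950 reads on genes, of which 0.164% to 0.210% fell on the Slc25 members. Mfn2 itself was lower in MFN2 cKO in all 4 pairs, with 34.3 to 50.1 FPKM against 62.2 to 97.5 in MFN2 WT. The gap was smallest in P at PD 52, with 62.2 FPKM in WT and 50.1 in cKO. The labelled stages were only partly borne out by marker genes. Piwil1, a pachytene gene, was at 168 to 278 FPKM in the P libraries and at 15.98 to 40.5 in the L/Z libraries, but the 10 leptotene and zygotene genes were not higher as a group in L/Z, with 5 to 7 of them higher in P in each block. The 12 spermatid genes, from round and elongating cells that follow meiosis, summed to 110 to 4896 FPKM in the P libraries and to 396 to 20102 in the L/Z libraries, and 12 of 12 were higher in L/Z in each of the 4 blocks. At PD 24, 0 of 12 were higher in MFN2 cKO in either stage. The 8 Leydig cell genes were all higher in MFN2 cKO in all 4 pairs, with a summed level of 20.7 to 261 FPKM in WT and 102 to 666 in cKO. The 9 Sertoli cell genes were all higher in P in every block, and their sum ran from 16.3 FPKM in the L/Z WT library at PD 52 to 533 in the P cKO library at PD 24. In bulk libraries such as these, fewer cells of a type and less RNA per cell cannot be told apart.

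Among the ADP/ATP carriers, Slc25a31 (GRCm38 chr3:40708855-40726096) had the highest FPKM in all 8 libraries, Slc25a5 (chrX:36795651-36798807) the second and Slc25a4 (chr8:46206797-46211284) the third. Their promoters are shown because the 3 genes serve the same exchange and differed in level. Each runs from 250 bases before to 50 bases after the start that RefSeq annotates (GRCm38.p6), with matches to searched motifs in capitals.
Slc25a31: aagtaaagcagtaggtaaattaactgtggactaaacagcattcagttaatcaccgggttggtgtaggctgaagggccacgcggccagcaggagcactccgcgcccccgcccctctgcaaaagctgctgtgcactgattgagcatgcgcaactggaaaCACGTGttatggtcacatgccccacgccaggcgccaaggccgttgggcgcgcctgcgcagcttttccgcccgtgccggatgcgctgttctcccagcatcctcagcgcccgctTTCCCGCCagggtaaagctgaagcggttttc
Slc25a5: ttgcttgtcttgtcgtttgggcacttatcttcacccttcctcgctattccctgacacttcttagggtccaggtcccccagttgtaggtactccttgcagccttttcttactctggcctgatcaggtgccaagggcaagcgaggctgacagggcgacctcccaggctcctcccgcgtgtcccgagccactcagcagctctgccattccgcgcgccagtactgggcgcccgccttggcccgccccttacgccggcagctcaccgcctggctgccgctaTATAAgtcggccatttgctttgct
Slc25a4: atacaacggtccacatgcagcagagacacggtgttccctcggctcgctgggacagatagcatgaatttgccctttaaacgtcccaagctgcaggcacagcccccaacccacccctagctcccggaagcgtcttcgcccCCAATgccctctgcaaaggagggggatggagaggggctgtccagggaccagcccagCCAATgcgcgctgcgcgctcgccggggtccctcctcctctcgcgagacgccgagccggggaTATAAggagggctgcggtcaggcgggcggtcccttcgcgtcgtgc
The Slc25a31 sequence is chr3:40708621-40708920 on the plus strand, that of Slc25a5 is chrX:36795347-36795646 on the plus strand and that of Slc25a4 is chr8:46211013-46211312 on the minus strand. The RefSeq start lay 16 bases inside the gene as the table gives it for Slc25a31, 54 bases outside it for Slc25a5 and 222 bases inside it for Slc25a4.

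Motifs were chosen after these sequences were seen and were searched on both strands. In Slc25a31 the capitals mark CACGTG (E-box), beginning 93 bases upstream of the start, and TTCCCGCC (an E2F-type sequence), beginning at base 20 of the transcript. CACGTG was present in 7.15% of all 32851 promoters of the RefSeq table and TTCCCGCC in 2.19%. Neither was found in the windows of Slc25a5 and Slc25a4, which both held TATAA, present in 24.9% of all promoters. It began downstream of the RefSeq start, at base 27 of the transcript in Slc25a5 and at base 6 in Slc25a4. Slc25a4 also held CCAAT at 112 and 56 bases upstream, present in 37.4%. TGACGTCA (1.79% of all promoters) was found in none of the 3. Of the 47 members, 36 had a promoter in the RefSeq table, and among these only Slc25a11 and Slc25a31 held TTCCCGCC, while Slc25a4, Slc25a5, Slc25a15, Slc25a18 and Slc25a21 held TATAA. The windows of all 3 carriers were rich in CpG, with 22 in Slc25a31, 18 in Slc25a5 and 25 in Slc25a4 against a median of 7 over all promoters. Such matches describe these letters and show no binding.

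In the P libraries Slc25a31 stood at 48.2 FPKM in WT and 45.6 in cKO at PD 24, and at 45.05 and 33.9 at PD 52. In the L/Z libraries the values were 33.9 (WT) and 53.6 (cKO) at PD 24, then 27.2 (WT) and 23.5 (cKO) at PD 52. It made up 45.5% to 81.8% of the summed FPKM of the 3 carriers, a range set by the P cKO library at PD 24 and the L/Z WT library at PD 52. P and L/Z, WT and cKO, and PD 24 and PD 52 overlapped, and no effect on Slc25a31 passed the test (limma on log2(FPKM + 1), stage difference P minus L/Z 0.37 ± 0.19 SE, adjusted p = 0.19; age difference PD 52 minus PD 24 -0.49 ± 0.21 SE, adjusted p = 0.14; genotype difference cKO minus WT -0.01 ± 0.21 SE, adjusted p = 0.999).

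Slc25a5 stood in P at 23.4 FPKM (WT) and 38.2 (cKO) at PD 24 and reached 24.1 (WT) and 19.5 (cKO) at PD 52. In L/Z it stood at 17.5 (WT) and 36.2 (cKO) at PD 24, then had 3.33 (WT) and 12.7 (cKO) at PD 52. Slc25a5 was thus higher in cKO in 3 of 4 pairs, and the L/Z WT library at PD 52, with 82 reads on the gene, was far below the other 7. The genotype difference was 0.77 ± 0.31 SE on the log2 scale and did not pass (limma, adjusted p = 0.70), nor did the age difference of -1.11 ± 0.34 SE (adjusted p = 0.074). The same L/Z WT library held the lowest Sertoli gene sum, 16.3 FPKM against 45.7 in its cKO partner, and whether this had a part in the Slc25a5 level was not tested. Of the 50-base windows of the Slc25a5 transcripts, 33.8% also occur in transcripts of 9 other genes, several of them pseudogenes named Gm or Slc25a5-ps. Reads can have been split among them or, if reads matching several genes were dropped, lost. These 9 were at or below 1.98 FPKM in all libraries, against at least 3.33 for Slc25a5, which does not show whether reads were lost. Neither Slc25a31 nor Slc25a4 shared any such window with another gene. The level of Slc25a5 may thus be understated, and its order and share beside Slc25a31 carry this limit.

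Slc25a4 was the lowest of the 3. In P it stood at 11.7 FPKM (WT) and 16.4 (cKO) at PD 24 and had 19.0 (WT) and 6.09 (cKO) at PD 52. In L/Z it stood at 10.2 (WT) and 19.8 (cKO) at PD 24, then had 2.73 (WT) and 5.76 (cKO) at PD 52. It was higher in cKO in 3 pairs and lower in P at PD 52, where the log2 difference was -1.50 (95% counting interval -1.70 to -1.30). In that pair the Sertoli gene sum was 438 FPKM in WT and 225 in cKO, with 0 of 9 genes higher in cKO. In L/Z at PD 24 the sum was also lower in cKO (172 in WT and 136 in cKO), where Slc25a4 was higher. The part of Sertoli cell RNA in the Slc25a4 level was not tested. No effect on Slc25a4 passed the test, with a stage difference of 0.60 ± 0.42 SE (limma, adjusted p = 0.31), an age difference of -0.96 ± 0.40 SE (adjusted p = 0.14) and a genotype difference of 0.18 ± 0.41 SE (adjusted p = 0.97).

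**Figure D1:**
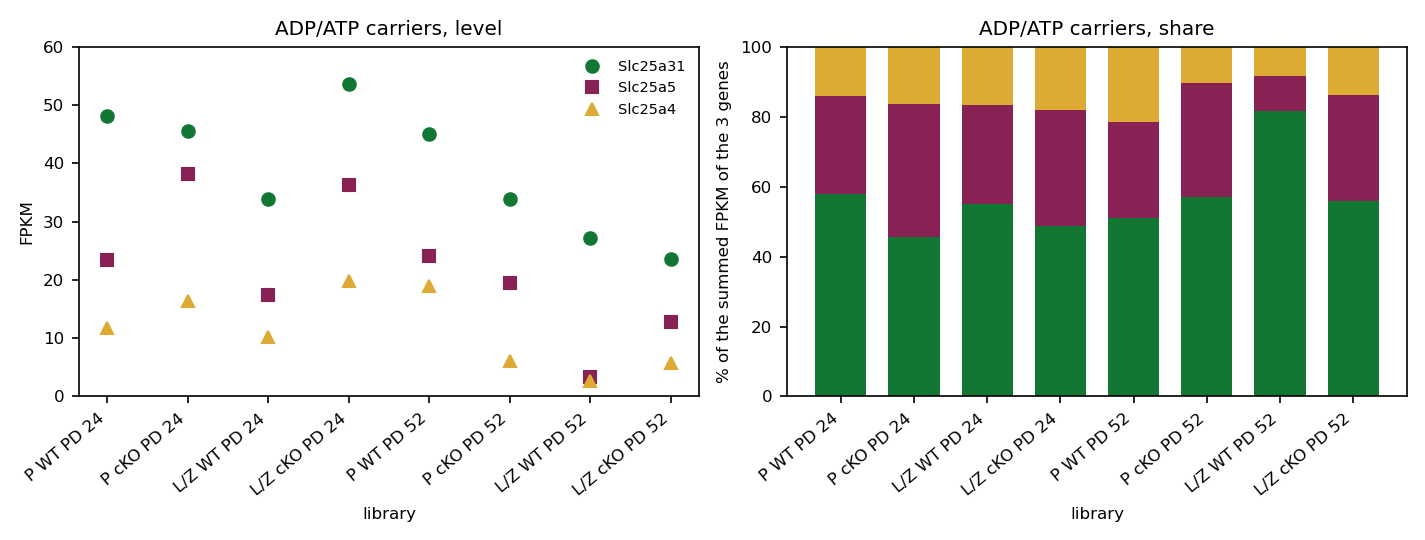
Left, FPKM of Slc25a31, Slc25a5 and Slc25a4 in each of the 8 libraries (1 point per gene and library, no replicates), and right, the share of each gene in their summed FPKM, with the same colours. Slc25a31 is the highest point in every library, and its share is largest, at 81.8%, in the L/Z WT library at PD 52.

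Differences between carriers within a library do not depend on the scaling of that library except through the added 1. In 9 such comparisons (3 pairs of carriers, each by stage, age and genotype) the smallest p was for Slc25a31 minus Slc25a5 by genotype. This log2 difference was 0.60 ± 0.26 (SD, n = 4) in cKO and 1.38 ± 0.89 (SD, n = 4) in WT, and it was lower in cKO in 4 of 4 pairs, by 0.11 to 1.86 (exact two-sided permutation test, p = 0.029, the smallest that 4 against 4 can give). Adjusted over the 9 comparisons it did not pass (p = 0.26, exact permutation test), and an exact sign-flip test over the 4 pairs gave p = 0.13, the smallest it can give. Without the L/Z WT library at PD 52 the genotype difference of this quantity shrank from -0.78 to -0.33 (exact permutation test, p = 0.086). Slc25a4 minus Slc25a5 was also lower in cKO in 4 of 4 pairs, with a difference of -0.59 (exact permutation test, p = 0.057, adjusted p = 0.26). The other 7 comparisons gave p of 0.31 to 0.71 by the same exact test.

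Over the whole family, Slc25a39, a carrier needed for glutathione in the matrix, was far above the rest with a median of 218 FPKM, which was 34.1% of the summed FPKM of the members in the median library. It ran only from 167 to 267 FPKM over the 8 libraries. Next came Slc25a28 (mitoferrin 2, an iron carrier) with a median of 41.8 FPKM, Slc25a2 (an ornithine carrier) with 40.2, Slc25a31 with 39.5 and Slc25a3 (the phosphate and copper carrier) with 33.8. In all, 12 members had a median above 10 FPKM and 7 a median below 1. The median of Slc25a39 lay above 99.4% of protein-coding genes, and those of the next 4 above 92.1% to 93.7%. For 11 members the highest library was under 2 times the lowest, among them Slc25a3 (27.4 to 41.8 FPKM), Slc25a20 (5.03 to 9.52 FPKM), the acylcarnitine carrier that feeds fatty acid oxidation, and Slc25a54 (11.5 to 18.7 FPKM). For 10 members the range was 5-fold or more, led by Slc25a41 with 19.5-fold (0.969 to 18.9 FPKM), Slc25a45 with 14.9-fold, Slc25a5 with 11.5-fold and Slc25a34 with 10.9-fold.

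**Figure D2:**
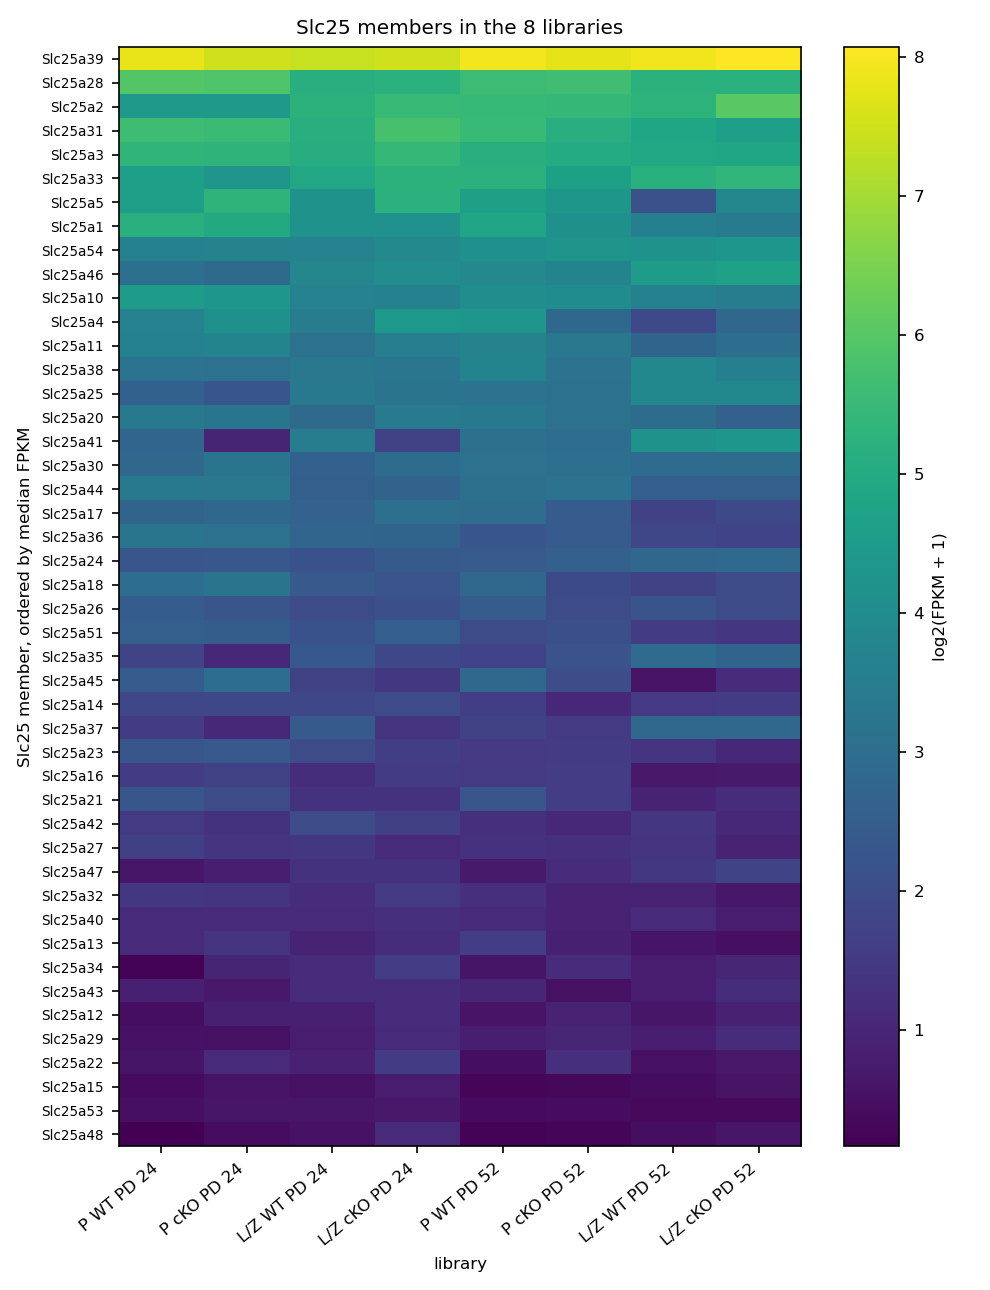
log2(FPKM + 1) of 46 members (rows, ordered by median FPKM) in the 8 libraries (columns), 1 library per group. Slc25a39 is the brightest row in every library, and Slc25a41 is darkest in the 2 cKO libraries at PD 24.

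The comparison of stages asked which carriers differ between P and L/Z spermatocytes. Of the 45 members tested, 8 were higher in P and 6 were lower (limma, adjusted p under 0.05), which is 31.1% beside 27.9% of all 21175 genes tested. All 14 differed in the same direction in 4 of 4 blocks, which a test over these same blocks favours. By direction the shares over all genes were 12% higher and 15.9% lower. The median difference of the members was 0.18 and that of all genes tested -0.04.

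Among those higher in P were 3 of the 4 carriers of citrate, dicarboxylates and oxo acids. Slc25a1, which exports citrate for fatty acid and sterol synthesis, was at 34.9, 30.0, 27.7 and 16.7 FPKM in the P libraries (WT and cKO at PD 24, then at PD 52) and at 17.4, 17.0, 10.9 and 9.52 in the L/Z libraries. Its difference was 0.94 ± 0.16 SE (limma, adjusted p = 0.0086), and only the P cKO library at PD 52 fell below the highest L/Z library. The dicarboxylate carrier Slc25a10 was higher by 0.60 ± 0.15 SE and the oxodicarboxylate carrier Slc25a21 by 0.85 ± 0.19 SE (adjusted p = 0.028 and 0.018). The fourth, the oxoglutarate carrier Slc25a11, differed by 0.50 ± 0.18 SE and did not pass (adjusted p = 0.081).

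Slc25a45, which is little characterised, had the largest stage difference, 1.37 ± 0.27 SE (limma, adjusted p = 0.013). It was at 3.12 to 7.16 FPKM in P and at 0.479 to 2.32 FPKM in L/Z, with no overlap. Also higher in P were Slc25a44 (branched-chain amino acids) by 0.66, Slc25a28 (iron) by 0.58 and Slc25a36 (pyrimidine nucleotides) by 0.52, with adjusted p of 0.017 to 0.037. Slc25a28 was at 47.2 to 61.2 FPKM in P and at 33.9 to 36.3 in L/Z, again with no overlap. All 9 Sertoli cell genes were likewise higher in P in every block, and the part of Sertoli cell RNA in these differences was not tested.

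Lower in P, and so higher in L/Z, were Slc25a41 by 1.00, Slc25a37 by 0.90, Slc25a46 by 0.87, Slc25a25 by 0.78, Slc25a35 by 0.76 and Slc25a47 by 0.63 on the log2 scale (limma, adjusted p of 0.0088 to 0.020). Slc25a41 and Slc25a25 are carriers of ATP-Mg and phosphate, and Slc25a25 carries a calcium-binding domain that Slc25a41 lacks. Slc25a37 is mitoferrin 1, the iron carrier known from red cell precursors, so the 2 mitoferrins moved in opposite directions with stage. Slc25a37 was at 1.11 to 2.24 FPKM in P and at 1.63 to 6.19 in L/Z, and the erythroid gene sum stayed below 10 FPKM in all libraries but the L/Z cKO library at PD 24, with 59.2 FPKM, where Slc25a37 was at its lowest L/Z level. Slc25a46, an outer membrane protein of the family that takes part in mitochondrial shape and contacts rather than in transport, was at 6.42 to 13.8 FPKM in P and at 13.1 to 24.6 in L/Z, a difference of -0.87 ± 0.16 SE (adjusted p = 0.010). Slc25a35 shares 1151 of its 3677 exonic bases with Rangrf on the opposite strand. Since strand use in the counting was not given, reads over these shared bases cannot be told apart from those of Rangrf. The median over the 8 libraries was 0.655 FPKM for Rangrf and 3.10 for Slc25a35. Among the other members called for stage or age, Slc25a10, Slc25a21, Slc25a23, Slc25a25, Slc25a37 and Slc25a46 share less, at most 8.76% of their exonic bases with any gene on the opposite strand. All spermatid genes were also higher in L/Z in every block, at sums of 396 to 20102 against 110 to 4896 FPKM, and so were all 8 macrophage genes, at sums of 40.6 to 275 against 6.27 to 47.2 FPKM. The 6 peritubular myoid cell genes summed to 78.9 to 298 FPKM in L/Z against 17.3 to 66.8 in P. In the cKO block at PD 24, 1 of these 6 was higher in P. The part of spermatid, macrophage and peritubular myoid RNA in these stage differences was not tested. Without the WT block at PD 24, or without the cKO block at PD 52, the fit of 3 blocks called 0 members (14 and 16 at an unadjusted p under 0.05) and also 0 of all 21175 genes (6491 and 6958 at an unadjusted p under 0.05). Without the cKO block at PD 24 it called 5 members and 2926 genes.

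**Figure D3:**
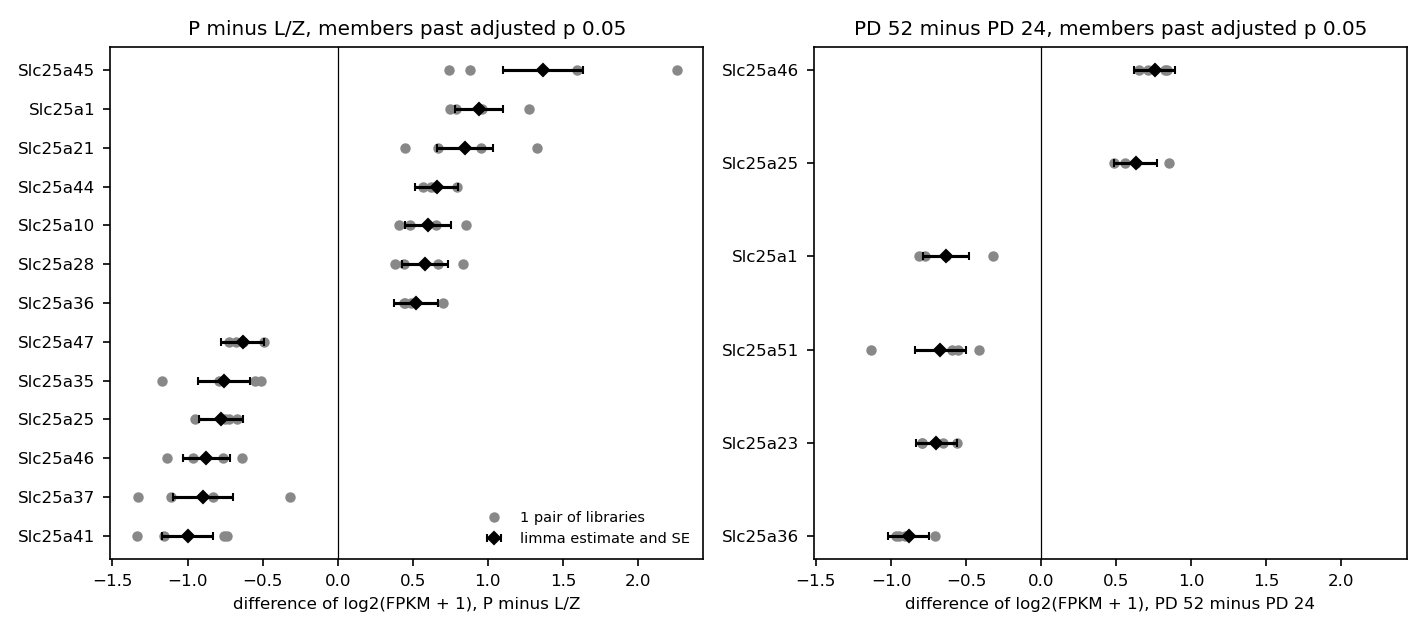
Members past an adjusted p of 0.05 in the stage comparison (left, P minus L/Z, 13 members shown) and the age comparison (right, PD 52 minus PD 24, 6 members). Grey points are the difference of log2(FPKM + 1) in each of the 4 matched pairs of libraries, and black diamonds with bars are the limma estimate and its SE. All points of a member lie on the same side of 0, which the test that picked these members favours.

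With age, 2 members rose and 4 fell from PD 24 to PD 52, or 13.3% of the 45 beside 16.1% of all genes tested (limma, adjusted p under 0.05). Over all genes 11.2% were higher and 4.91% lower at PD 52. Slc25a46 rose by 0.76 ± 0.14 SE (adjusted p = 0.023), from 6.42 to 15.3 FPKM at PD 24 to 12.1 to 24.6 FPKM at PD 52, and Slc25a25 rose by 0.63 ± 0.14 SE (adjusted p = 0.037). Both were also among the members lower in P. Slc25a36 fell by 0.88 ± 0.14 SE (adjusted p = 0.019), from 5.51 to 8.37 FPKM at PD 24 to 2.33 to 4.42 FPKM at PD 52, with no overlap. Slc25a23, another calcium-regulated ATP-Mg and phosphate carrier, fell by 0.70, Slc25a51, the NAD carrier, fell by 0.67 and Slc25a1 fell by 0.64 on the log2 scale (adjusted p of 0.028 to 0.048).

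So Slc25a1 and Slc25a36 were higher in P and lower at PD 52, while Slc25a46 and Slc25a25 were lower in P and higher at PD 52. The stage and age comparisons use the same 8 libraries, and the spermatid sum, which was higher in L/Z, was also higher at PD 52 in all 4 blocks (2214 to 20102 against 110 to 2532 FPKM). The Sertoli sum was lower at PD 52 in P cKO (225 against 533 FPKM), L/Z WT (16.3 against 172) and L/Z cKO (45.7 against 136) and was 438 FPKM at both ages in P WT. The sum of 6 peritubular myoid cell genes was lower at PD 52 in all 4 blocks (17.3 to 87.1 against 52.5 to 298 FPKM). The part of these cell types in the age differences was not tested. Within the role groups, ATP-Mg and phosphate carriers went both ways with age, since Slc25a25 rose, Slc25a23 fell, Slc25a24 was higher by 0.39 without passing (adjusted p = 0.12) and Slc25a41 was higher by 1.41 ± 0.40 SE without passing (adjusted p = 0.060). No member was called when the P cKO, the L/Z WT or the L/Z cKO block was left out (7, 9 and 11 at an unadjusted p under 0.05), and these fits also called 0 of all genes tested (5050, 5389 and 5722 at an unadjusted p under 0.05). Without the P WT block 7 members and 3174 genes were called.

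Between genotypes no member passed the test. Over all pairs limma called 0 of 45 members, beside 18 of all 21175 genes tested (0.085%, of which 0.0803% were higher and 0.00472% lower in cKO), and limma-voom on reads recovered from the FPKM also called 0 members. At an unadjusted p under 0.05 limma gave 3 members (6.67%) and limma-voom 5 (11.1%), beside 6.99% and 6.80% of all genes tested. The 3 were Slc25a5, given above, the glutamate carrier Slc25a22 with 0.55 ± 0.16 SE (adjusted p = 0.51) and the little characterised Slc25a34 with 0.50 ± 0.15 SE (adjusted p = 0.53). Slc25a22 exceeded an FPKM of 1 only in cKO libraries, so it entered the tests through the group where it was higher.

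Slc25a22 was higher in MFN2 cKO in 4 of 4 pairs. In P it stood at 0.538 FPKM (WT) and 1.21 (cKO) at PD 24, then had 0.364 (WT) and 1.39 (cKO) at PD 52. In L/Z it stood at 0.857 (WT) and 1.91 (cKO) at PD 24, then had 0.424 (WT) and 0.639 (cKO) at PD 52. Slc25a12, an aspartate and glutamate carrier of the malate-aspartate shuttle, was also higher in 4 of 4 pairs, by 0.26 to 0.38 on the log2 scale, at levels of 0.378 to 1.25 FPKM, while its partner Slc25a13 (0.396 to 2.002 FPKM) went both ways. In all, 7 of the 45 members tested were higher in cKO in every pair, namely Slc25a12, Slc25a16, Slc25a22, Slc25a24, Slc25a34, Slc25a48 and Slc25a54, and 6 were lower in every pair, namely Slc25a1, Slc25a10, Slc25a25, Slc25a27, Slc25a38 and Slc25a42. Over all genes tested these shares were 7.74% and 5.66%. Of the 7, Slc25a12, Slc25a22 and Slc25a48 passed the FPKM filter only through cKO libraries, with highest WT values of 0.822, 0.857 and 0.471 FPKM. Such entry favours members that are higher in cKO. Several of the 7 are low, with few reads per library, and the summed Leydig and macrophage genes were higher in cKO in the same 4 pairs. The macrophage sum was 6.27 to 58.7 FPKM in WT and 21.4 to 275 in cKO, with 7 or 8 of 8 genes higher in each pair, and the part of these cells was not tested.

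Within single pairs the members as a group lay close to protein-coding genes in general. Their median difference, cKO minus WT, was -0.06 in P at PD 24, -0.16 in P at PD 52, 0.12 in L/Z at PD 24 and 0.05 in L/Z at PD 52, beside -0.07, -0.09, 0.11 and 0.01 for protein-coding genes. On the log2(FPKM + 1) scale, at least 2-fold differences were seen in 1 of 39 members in P at PD 24, 1 of 43 in P at PD 52, 3 of 45 in L/Z at PD 24 and 1 of 39 in L/Z at PD 52, beside 8.08%, 11%, 10.5% and 7.95% of all genes that passed the FPKM filter there. They were Slc25a41 in both stages at PD 24, Slc25a37 in L/Z at PD 24, Slc25a4 in P at PD 52 and Slc25a5 in L/Z at both ages. By direction, 0 members were higher and 1 lower in cKO in P at PD 24 (1.79% and 6.29% of all genes), 0 and 1 in P at PD 52 (5.21% and 5.78%), 1 and 2 in L/Z at PD 24 (3.45% and 7.03%) and 1 and 0 in L/Z at PD 52 (4.83% and 3.12%). No member reached 2-fold the same way in 3 or more pairs on this scale, which understates changes of low genes. By plain FPKM ratio, with nothing added, the counts were 3, 6, 5 and 3 members in the same order of pairs, beside 14.8%, 20.6%, 18.9% and 16.5% of all genes. By that ratio Slc25a22 was at least 2-fold higher in cKO in 3 pairs (2.25-fold in P at PD 24, 3.82-fold in P at PD 52 and 2.23-fold in L/Z at PD 24). It passed the FPKM filter there only through its cKO library. Among pairs that passed the filter, Slc25a13, Slc25a18, Slc25a34, Slc25a35, Slc25a43, Slc25a45 and Slc25a48 differed by at least 2-fold in 1 pair each. Slc25a13, Slc25a34, Slc25a43, Slc25a45 and Slc25a48 passed it there only through their higher library. Below the filter in P at PD 24, Slc25a34, Slc25a48 and Slc25a12 were 5.31-fold, 2.98-fold and 2.09-fold higher in cKO. The members named above for the log2 scale passed by this ratio too, and Slc25a4 also passed in L/Z at PD 52, where it was higher in cKO.

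Slc25a41, the short ATP-Mg and phosphate carrier, had the largest difference of any member within a pair. At PD 24 it stood at 5.74 FPKM in WT and 0.969 in cKO in P, and at 10.4 and 2.29 in L/Z, from 154 and 24 reads and from 261 and 54 reads. At PD 52 it had 7.40 FPKM (WT) and 6.88 (cKO) in P and 17.8 (WT) and 18.9 (cKO) in L/Z. The log2 difference was -1.77 (95% counting interval -2.11 to -1.41) in P and -1.79 (-2.11 to -1.47) in L/Z at PD 24, against -0.09 (-0.39 to 0.21) and 0.09 (-0.12 to 0.29) at PD 52. These intervals cover counting error only. The difference between the ages (genotype by age) was 1.78 ± 0.28 SE and did not pass over all genes (limma, adjusted p = 0.13, unadjusted p = 0.00074, model over 8 libraries), while it passed when only protein-coding genes were tested and with limma-voom. No gene of the 21175 passed that interaction in limma (2582 genes at an unadjusted p under 0.05), and limma-voom called 624. The fit of 14059 protein-coding genes called 193, and limma with a trend in the prior called 3 of the 21175.

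The 12 spermatid genes followed much the same order of libraries as Slc25a41. Their sum was 1265 FPKM in P WT and 110 in P cKO at PD 24, and 2532 in L/Z WT and 396 in L/Z cKO. At PD 52 it was 4896 and 2214 in P, and 10925 and 20102 in L/Z. The order of the 8 libraries by Slc25a41 and by this sum differed only in that L/Z WT at PD 24 and P WT at PD 52 changed places. The part of spermatid RNA in the Slc25a41 differences was not tested. Its neighbour Slc25a23, 2056 bases away on the same strand of chr17, did not share the pattern, with 3.83 and 4.18 FPKM in P and 3.03 and 2.08 in L/Z at PD 24.

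**Figure D4:**
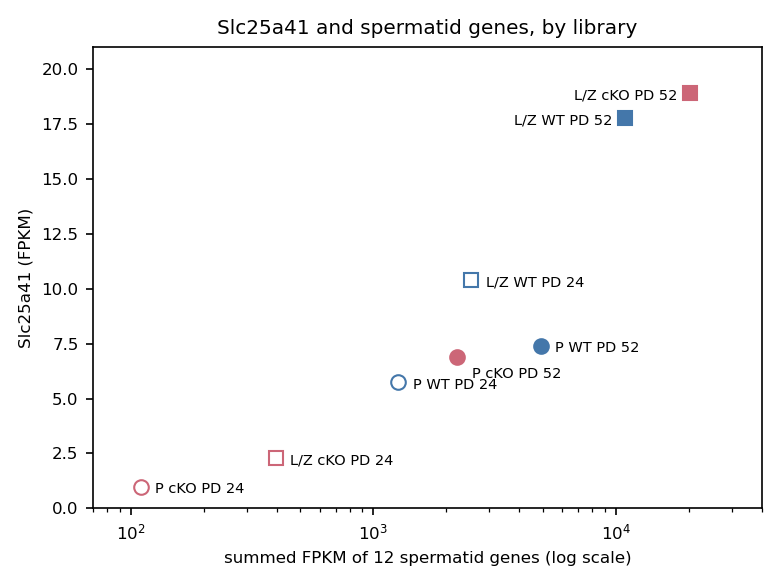
Slc25a41 (FPKM) against the summed FPKM of 12 spermatid genes (log axis) in the 8 libraries, with circles for P, squares for L/Z, blue for WT, red for cKO, open symbols for PD 24 and filled symbols for PD 52. The 2 cKO libraries at PD 24 lie lowest on both axes and the 2 L/Z libraries at PD 52 highest.

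Other members with large differences in a pair were few. Slc25a35 and Slc25a37 followed Slc25a41 as the most negative differences at PD 24 in both stages, with Slc25a35 at -0.70 in P and -0.46 in L/Z and Slc25a37 at -0.51 in P and -1.02 in L/Z. At PD 52 the most negative differences in P after Slc25a4 were those of the glutamate carrier Slc25a18 (-0.90) and Slc25a45 (-0.78), which had been higher by 0.56 in cKO at PD 24. The most positive differences in P at PD 52 were Slc25a22 (0.81), Slc25a34 (0.56) and Slc25a47 (0.45). In L/Z at PD 52 Slc25a2 was higher in cKO by 0.75, after Slc25a5 (1.66) and Slc25a4 (0.86), and the most negative differences were those of Slc25a27, an uncoupling-protein-like member (-0.49), Slc25a20 (-0.37) and Slc25a42, the coenzyme A carrier (-0.35). None of these single-pair differences has a replicate.

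**Figure D5:**
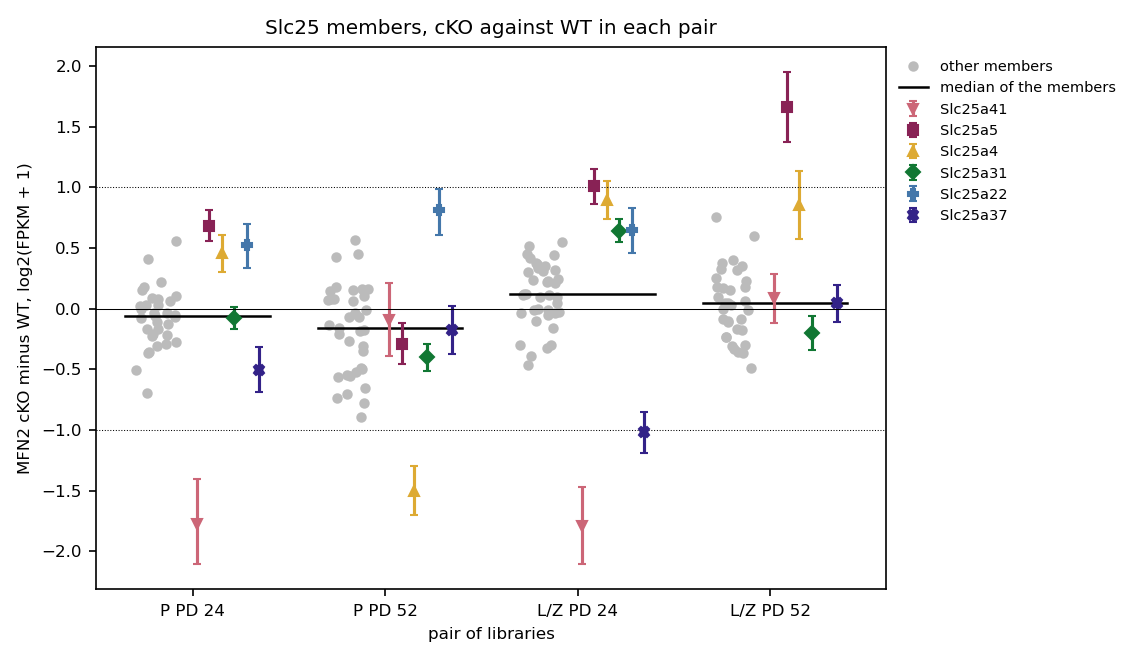
MFN2 cKO minus WT in log2(FPKM + 1) for each member above 1 FPKM in that pair, in the 4 pairs of libraries. Coloured symbols are 6 named members with 95% counting intervals, grey points the other members, horizontal bars the medians and dotted lines a 2-fold change. Slc25a41 lies below -1 at PD 24 only, and the medians stay between -0.16 and 0.12.

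Of the 4 X-linked members, 3 were tested. In the stage comparison limma called 0 of the 3 (0 at an unadjusted p under 0.05), and limma-voom also called 0 (1 at an unadjusted p under 0.05, Slc25a5), beside 59 higher and 208 lower of 606 X-linked protein-coding genes, whose median was -0.45 against 0.02 on the autosomes. Slc25a14, an uncoupling-protein-like member, was at 1.11 to 2.68 FPKM in P and at 1.75 to 2.91 FPKM in L/Z, a difference of -0.09 ± 0.16 SE (limma, adjusted p = 0.69). Slc25a43, which lies 18448 bases from Slc25a5, was at 0.426 to 1.02 FPKM in P and at 0.713 to 1.27 FPKM in L/Z (-0.30 ± 0.19 SE, adjusted p = 0.26). Slc25a5 differed by 0.90 ± 0.39 SE (adjusted p = 0.12), the other way from the X-linked median, and this value was carried mostly by the pair with the L/Z WT library at PD 52. In the WT pair at PD 52 its difference was 2.53, and in the other 3 pairs 0.07 to 0.58.

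The carriers outside the name rule and the enzymes they work with were described from a list of 32 genes, of which 27 were tested. Between genotypes 0 were called by limma (1 at an unadjusted p under 0.05) and 0 by limma-voom (2 at an unadjusted p under 0.05). Over all genes tested limma called 0.085%. At an unadjusted p under 0.05 the shares over all genes were 6.99% in limma and 6.80% in limma-voom. In the stage comparison 1 was higher in P (Sfxn3, a sideroflexin, by 1.04) and 3 were lower, beside 12% and 15.9% of all genes tested. The 3 were the hexokinase Hk1, by 0.99, Sfxn4 by 0.63 and Ckmt2, a mitochondrial creatine kinase, by 0.59 on the log2 scale. With age Hk1 rose by 1.52 and Ckmt2 by 0.79, and 6 fell, namely Sfxn3, Mtch1, Hk2, Ucp2, Got2 and Sfxn2, by 0.70 to 1.28. The outer membrane channel Vdac1, which passes adenine nucleotides, was at 2.07 to 18.7 FPKM without passing any of the 3 tests, and Vdac2 was the most abundant channel, at 113 to 171 FPKM.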

How the data were processed

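Total RNA of sorted spermatocytes was made into libraries with the NEBNext Ultra kit and read in pairs on an Illumina HiSeq. The authors deposited 1 table of FPKM (fragments scaled to gene length and library size) for 54532 genes in 8 libraries, with gene lengths and coordinates, normalized with Novomagic. Of the table's genes, 98.1% have the coordinates of GENCODE M21 (GRCm38), whereas the submitters' processing notes list Bowtie 0.12.2, CASAVA 1.4, mm8 and mm9. The aligner, the counting and its use of strand behind the FPKM are not given in the sources used here. In each library FPKM multiplied by gene length was divided by the value of 1 read, taken from the smallest nonzero products of that library. All values came out as whole reads (within 0.01 read), which gave 14340665 to 20379950 reads per library.

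Values were tested as log2(FPKM + 1), a scale on which changes of low genes are understated. limma 3.58.1 (R 4.3.3) was fitted to the 21175 genes above an FPKM of 1 in at least 1 library, for genotype, stage and age with the matched pair as block and for their interactions with genotype, and p-values were adjusted over all genes (Benjamini-Hochberg). A count model was not used as the main test since the deposited unit is FPKM. The 9 carrier comparisons used exact permutation tests. Counting intervals are exact binomial at 95%. The fits were tested on simulated data. Other tools were Python 3.11.15, pandas 2.3.3, numpy 2.4.6, scipy 1.17.1 and matplotlib 3.10.9.

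The fits were repeated with 0.1 as the pseudocount, without the FPKM filter, after scaling by median of ratios, over protein-coding genes alone, with an additive model, with a trend in the prior, by limma-voom on the recovered reads and without each block in turn. Subsets of libraries (PD 24 only, WT only, P only, L/Z only, and all but the L/Z WT library at PD 52) were added after seeing the data. Members, role groups, marker and partner lists were chosen with earlier results of these data known. Members named in the text were the ADP/ATP carriers, X-linked members, Slc25a1, Slc25a3, Slc25a12, Slc25a13, Slc25a20, Slc25a28, Slc25a37 and Slc25a46, members past an adjusted p of 0.05 (the 6 largest rises and 6 largest falls where over 12 passed), the 3 largest rises and 3 largest falls in each pair, the 5 of highest median and those never above an FPKM of 1. Further members were named after their values were seen where a short count or a role group needed them. The values of 1 member are not reported here, though it is in the counts. Promoters and motifs came from RefSeq (GRCm38.p6), and exon overlaps and shared 50-base windows from GENCODE M21.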

Additional observations from a re-analysis of the deposited data

How the results depend on the processing

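Directions of the called members held under every setting tried, but their number did not, and fits of 3 blocks or fewer have fewer residual degrees of freedom. For the stage effect, 14 members became 0 to 12 when each block was left out, and 0 with PD 24 libraries only or WT libraries only (16 and 13 at an unadjusted p under 0.05, the subsets chosen after seeing the data). For the age effect, 6 became 0 to 7 when each block was left out, 3 with a pseudocount of 0.1, and 0 with P libraries only or L/Z libraries only (5 and 11 at an unadjusted p under 0.05). For genotype by age, 0 became 1 (Slc25a41) with protein-coding genes only and with limma-voom. For genotype, members called stayed at 0 under all alternatives, while calls over all genes went from 18 to between 0 and 114. Over all genes the stage calls ran from 0 to 7604 (main 5917), the age calls from 0 to 4385 (main 3405) and the genotype by age calls from 0 to 624 (main 0). With a pseudocount of 0.1, or ratios of scaled reads with nothing added, at least 2-fold changes were seen in 3 members in P at PD 24, 6 in P at PD 52, 5 in L/Z at PD 24 and 3 in L/Z at PD 52. Slc25a31 minus Slc25a5 by genotype ran from -0.413 to -0.997 when each block was left out (exact permutation p = 0.1, the smallest 3 against 3 can give) and was -0.334 without the L/Z WT library at PD 52. Uncalled differences changed sign for Slc25a31 minus Slc25a4 by stage (-0.458 to 0.261 over the blocks left out, positive without the WT block at PD 52) and by genotype (-0.615 to 0.104, positive without the L/Z block at PD 52, and 0.143 without its WT library), and for Slc25a4 minus Slc25a5 by age (-0.0122 to 0.317, negative without the P WT block). The labels carry no replicate numbers, and the pairs used as blocks and in the sign-flip tests are groups matched by stage, age or genotype. Depth limits members below an FPKM of 1, where a library held few reads, down to 8 for Slc25a48.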
